A study of Mus musculus with 6 samples.

Results

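Among the RNA contact sites of JARID2 in untreated mouse embryonic stem cells, 2300 of 23380 (9.84%, exact 95% interval 9.46 to 10.2) lay in 293 dense loci at which the list from retinoic acid-treated cells held no site. The loci were found by joining the sites of both conditions on 1 strand across gaps of up to 10 kb. A locus was kept when it held at least 5 untreated sites and 0 treated sites and lay on a placed chromosome other than the mitochondrial one. The members are the untreated sites of those loci, called untreated-only loci here. The members were thus chosen by the number of sites in each list, and those numbers are given as a description with no test.

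JARID2 is a partner of PRC2, the Polycomb complex that methylates histone tails at silent developmental genes, and both have been found to bind RNA in embryonic stem cells. Retinoic acid is a signal that drives such cells out of pluripotency and towards differentiated fates. In PAR-CLIP, cells take up 4-thiouridine into new RNA, ultraviolet light links that base to a protein touching it, and the RNA recovered with the protein is sequenced. A site is therefore a short stretch of RNA, and neighbouring sites on 1 strand can come from 1 transcript or from several.

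The cells were E14, a line of mouse embryonic stem cells of wild-type genotype, grown with serum and LIF, a cytokine that keeps them pluripotent. In 3 libraries they were left untreated, and in 3 they were given 2 µM retinoic acid for 24 h. All 6 had 500 µM 4-thiouridine for 2 h and 400 mJ/cm2 of light at 312 nm, and all used an in-house antibody to JARID2. The authors deposited 1 list of sites per condition, pooled over its 3 libraries, so there is no value per library, no spread between replicates and no test between conditions. The treated list held 5348 sites, 4.37 times fewer than the untreated list, and read depth is not given for either.

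The rule keeps mostly loci with few sites. Of 940 dense loci, defined as those with at least 5 untreated sites on the chromosomes used, 293 had 0 treated sites, which is 31.2% (28.2 to 34.2). Among the 561 loci with 5 to 9 untreated sites, 240 (42.8%, 38.6 to 47.0) had none. Among the 238 with 10 to 19 sites there were 45 (18.9%, 14.1 to 24.5), and among the 141 with 20 or more there were 8 (5.67%, 2.48 to 10.9). These shares fell as the number of untreated sites grew. The loci with a treated site, 647 in all, are the ones set beside the untreated-only loci below.

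**Figure D1:**
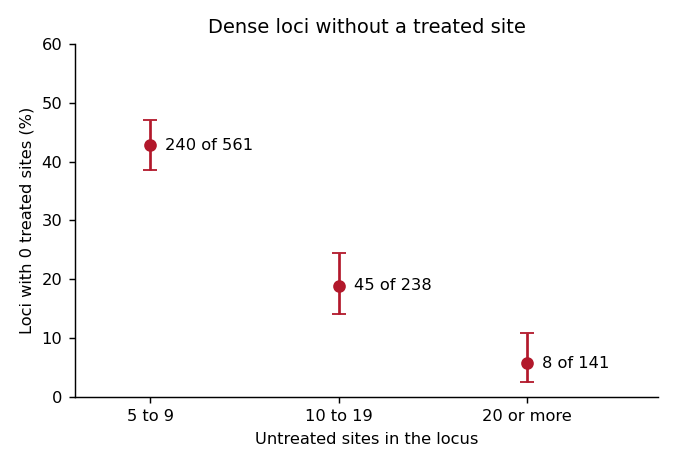
Percentage of dense loci with 0 treated sites (vertical axis) by number of untreated sites in the locus (horizontal axis), with exact 95% binomial intervals as bars and the number of loci beside each point. The share is 42.8% for loci of 5 to 9 sites and 5.67% for loci of 20 or more.

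List length alone bears on these counts. At the ratio of the lists, a locus with 5 untreated sites would hold 1.14 treated sites, and 271 of the 293 loci (92.5%) would hold fewer than 3. A count of 0 allows up to 3 of 5348 sites, or 0.0561% of the treated list. That limit is below the untreated share only from 14 untreated sites up, which 22 of the 293 loci (7.51%) reached. For the other 271, a lower share in the treated list was not detectable at this list length. This limit applies to a locus chosen without regard to its treated count, whereas these loci were picked for a count of 0. The multiples of the limit given below therefore describe the counts and do not bound a change between conditions. They also rest on joining sites across 10 kb. With gaps of up to 1 kb, each of the 13 named loci with at least 14 sites broke into parts that all fell under that number, and none stayed above the limit. Intervals and limits here cover counting error only.

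Around the thresholds the loci formed a continuum. There were 99 loci with 5 untreated and 0 treated sites and 176 with 4 untreated and 0 treated. Another 214 dense loci missed the rule by having exactly 1 treated site. Those 214 held a median of 8 untreated sites and at most 70, the scores of their untreated sites had a median of 17, and those of the lone treated site a median of 18, with 117 of the 214 under 20. The number of untreated-only loci moved with the scores kept, from 293 to 104 when both lists were held to scores of at least 20, and with the joining distance, to 172 at gaps of up to 1 kb. On the side of distance, the member locus nearest to a treated site on its strand, chr15:82683421-82692302 on the minus strand, lay 10.2 kb from it. The next, chr15:99450957-99466475 and chr8:125482511-125497847 on the minus strand, lay 10.3 kb away. Coordinates are those of mm9, counted from 1, and genes are not named because no annotation of that build was used here.

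Like the other dense loci, the untreated-only loci were broad and thinly occupied. Their span, from the first to the last site, had a median of 13.7 kb (95% interval 12.4 to 14.7, quartiles 7.22 and 21.6) and ran from 0.304 to 54.7 kb. They held 5 to 53 sites with a median of 6, which is a median of 0.512 sites per kb. The sites covered a median of only 97 bases per locus. Spans were over 20 kb at 80 loci (27.3%), under 5 kb at 41 (14%) and under 1 kb at 3. The 647 dense loci with a treated site had a median span of 16.7 kb and a median of 0.669 sites per kb. Spans there were over 20 kb at 268 (41.4%), under 5 kb at 121 (18.7%) and under 1 kb at 35 (5.41%).

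Within classes of site number, spans differed little. With 5 to 9 sites, the median span was 12.3 kb (11.0 to 13.6) for the 240 untreated-only loci and 11.2 kb (9.40 to 12.7) for the 321 with a treated site. With 10 to 19 sites it was 21.9 kb for both (18.6 to 27.8 and 19.4 to 24.8, over 45 and 193 loci). With 20 or more it was 29.0 and 28.1 kb, over 8 and 133 loci. That class has no upper end, and its loci held a median of 25.5 and 31 sites. The intervals overlapped in all 3 size classes. Loci are not replicates of a condition, so no test was made, and a treated site can also bridge 2 stretches of untreated sites and so lengthen a locus that has one.

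**Figure D2:**
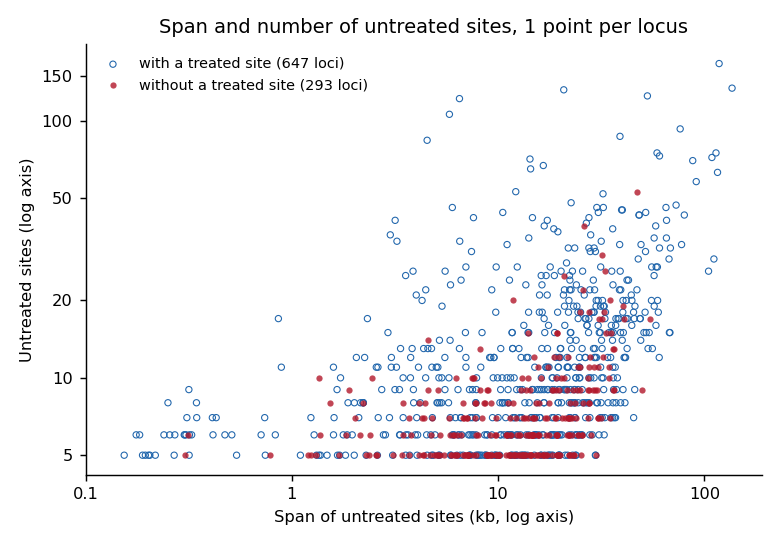
Span of the untreated sites in kb (horizontal, log axis) against the number of untreated sites (vertical, log axis), with 1 point per locus, filled for the 293 untreated-only loci and open for the 647 with a treated site. The filled points lie within the cloud of open ones and stop at 53 sites and 54.7 kb, while the open ones reach 167 sites and 136.2 kb.

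Neighbouring sites inside the untreated-only loci lay a median of 1129 bases apart (1008 to 1236, quartiles 319 and 3235), counted from the end of a site to the start of the next over 2007 gaps. Gaps under 100 bases made up 11.9% of them, gaps from 100 to under 1000 bases 35.5%, gaps from 1000 to under 5000 bases 37.7%, and longer gaps 14.8%. In dense loci with a treated site the median gap was 474 bases (451 to 501) over 9307 gaps, of which 23.4% were under 100 bases. Part of that difference goes with locus size. With 5 to 9 sites, the medians were 1421 (1264 to 1582) and 1004 bases (900 to 1167), with 10 to 19 sites 953.5 (782 to 1132) and 779 (724 to 877), and with 20 or more 522 (435 to 671) and 301 (285 to 320). The untreated-only loci had the wider median gap in each size class, with gaps pooled over loci. Over loci, the median of their own median gaps was 1682 bases (1399.5 to 1980) against 1225 (991 to 1429) with 5 to 9 sites. It was 1288 (748 to 1622) against 970 (791.5 to 1149) with 10 to 19. With 20 or more it was 564.8 (339 to 877) against 454.5 (337 to 579). These intervals by locus overlapped in each size class.

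The members seldom sat side by side under 1 name. Some neighbouring sites share the part of the authors' site name before the dot, whose meaning no label gives, while others as close do not. The 2300 sites carried 2203 such group names, 2114 of them used once. Sites that shared a group made up 8.09% (7.0 to 9.28), against 20.7% (19.9 to 21.5) in dense loci with a treated site. That comparison was not split by locus size, and the loci with a treated site held more sites at closer spacing. The largest group there had 106 sites, against 4 among the members. The site length had a median of 12 bases (quartiles 9 and 17, range 2 to 87), against 13 bases in the comparison loci and 12 in loci with fewer than 5 untreated sites.

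The richest untreated-only locus was chr9:39998702-40045825 on the minus strand, with 53 sites over 47.1 kb. Its sites carried 51 group names and lay a median of 557.5 bases apart, at most 3903. No window of 2 kb held more than 6 of them, so they ran along the whole locus, with 31 between its midpoint and its 5′ end and 22 beyond the midpoint. Scores ran from 3 to 669 with a median of 18, and 29 of the 53 were under 20. Only 2 were at least 100: a site of 669 at chr9:40007680-40007697 and one of 285 at chr9:40033239-40033247, while the next had 56. It would hold 12.1 treated sites at the ratio of the lists, or 10.9 when the ratio is taken within bins of score. It held 0.227% of the untreated list, 4.04 times the limit of 0.0561%, and the nearest treated site on its strand lay 126.6 kb away.

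The second was chr2:162881521-162907740 on the plus strand, with 39 sites over 26.2 kb and a median gap of 433 bases. Its scores ran evenly, from 4 to 65 with a median of 20 and quartiles of 13.5 and 26.5, and none reached 100. The highest, 65, held 7.59% of the locus's summed score of 856. Its share of the untreated list was 2.97 times the limit of 0.0561%, and the nearest treated site on the strand was 117.3 kb away.

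On chromosome 4, 2 loci came next, both without any site of 100 or more. The first, chr4:145262370-145294098 on the plus strand, held 30 sites with scores of 4 to 41 and a median of 17.5. Its sites were bunched: a single 2-kb window held 10 of them and 7 gaps were under 100 bases, while the longest gap was 5702 bases. The other, chr4:146981737-147014558 on the minus strand, held 26 sites with scores of 2 to 46 and a median of 14.5. Its median gap was 798 bases. The shares of these loci in the untreated list were 2.29 and 1.98 times the limit of 0.0561%.

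The locus at chr6:122268427-122289356 on the minus strand differed in where its score lay. It held 25 sites over 20.9 kb with a median score of 23 and none below 10. A single site of 821 at chr6:122268641-122268666, 20.7 kb from the 5′ end and close to the 3′ end of the locus, held 55.9% of the summed score of 1470. The next 2 sites had 68 each. The locus's share of the untreated list was 1.91 times the limit of 0.0561%.

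Of the 5 remaining loci among the 10 with the most sites, 4 had no site of 100 or more. They were chr2:180414741-180440527 (minus, 22 sites, scores 10 to 44), chr2:129025396-129037267 (plus, 20 sites, scores 6 to 65), chr8:44221730-44262186 (minus, 19 sites, scores 4 to 57) and chr2:71243937-71276626 (plus, 18 sites, scores 9 to 45). The exception was chr1:138594796-138629683 on the plus strand, where 2 of 20 sites, with 307 and 258, stood above a third-highest score of 42. Of its 20 sites, 16 lay between its midpoint and its 5′ end. The chr2:129025396 locus was the most compact of the 5, at 11.9 kb, with the highest median score, 28.5. The shares of these 5 loci in the untreated list ran from 1.37 to 1.68 times the limit of 0.0561%. The last place among the 10 was tied between 3 loci with 18 sites, of which the chr2:71243937 locus was taken by chromosome order. Of the 9 loci with more than 18 sites, 3 lay on chromosome 2. None of the 10 had a site of either list on the other strand within its span.

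**Figure D3:**
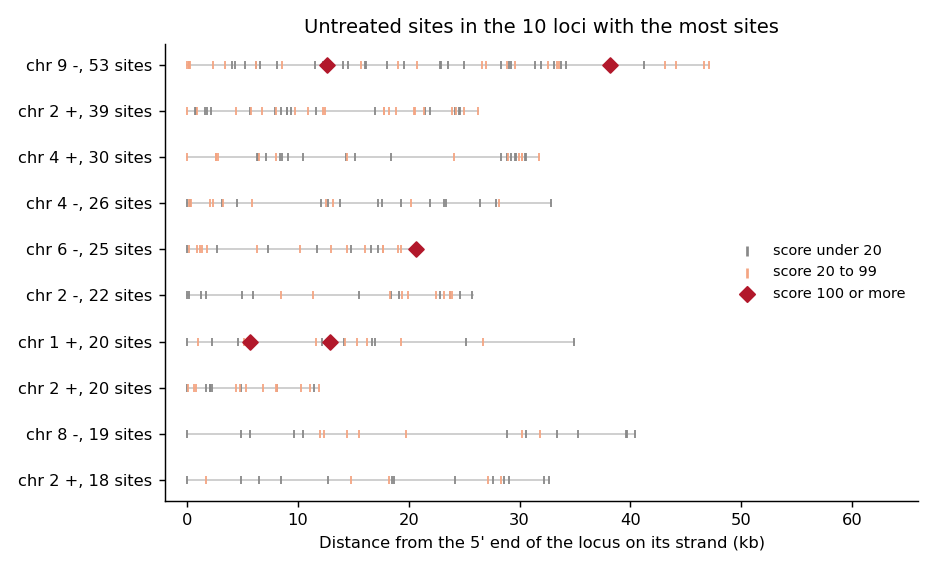
Untreated sites along the 10 untreated-only loci with the most sites, by distance in kb from the 5′ end of the locus on its strand (horizontal axis), with 1 line per locus. Ticks are sites scored under 20 (grey) or 20 to 99 (orange) and diamonds are sites scored 100 or more, which occur in 3 of the 10 loci.

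The highest densities belonged to short loci. Among the 53 untreated-only loci with at least 10 sites, chr17:28466470-28467826 on the plus strand was densest, with 10 sites in 1.36 kb, or 7.37 per kb. Its sites were long, with a median of 18 bases, and its scores were even: 21 to 76, with a median of 38 and none under 20. Next was chr11:77107280-77109726 on the plus strand, with 10 sites in 2.45 kb, the same median length of 18 bases, and scores of 14 to 96 around a median of 27. At the third, chr14:31826647-31831201 on the minus strand, were 14 sites in 4.55 kb, of which 11 lay within 2 kb. There, 3 sites stood out with scores of 301, 240 and 203, against a median of 16.5. The fourth was the chr2:129025396 locus, at 1.68 sites per kb. At the fifth, chr9:110842232-110848460 on the minus strand, 10 sites lay in 6.23 kb (1.61 per kb), and 1 of them, with 593, held 60.3% of the summed score. Of these 5 loci, those on chromosomes 17, 11 and 9 had too few sites for the limit to bear on them.

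Below 10 sites, densities reached 19 per kb. That value belonged to chr8:74844924-74845238 on the plus strand, with 6 sites in 315 bases and scores of 82, 37, 18, 34, 20 and 13 in the order of their positions. A locus of 786 bases, chr5:77696379-77697164 on the plus strand, held 5 sites with scores of 19, 20, 12, 50 and 220. Both were named after their values were seen, as 2 of the 3 loci under 1 kb. The third of them, on chromosome 16, is described with the scores.

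Short loci scored higher than long ones. The 41 untreated-only loci under 5 kb held 265 sites with a median score of 21 (19 to 23), and 26 of those sites (9.81%, 6.51 to 14) scored at least 100. The 252 longer loci held 2035 sites with a median of 16 (15 to 16), and 44 (2.16%, 1.58 to 2.89) scored at least 100. Dense loci with a treated site had medians of 46 (41 to 51) under 5 kb and 19 (19 to 19) above. These intervals treat sites that share a locus as independent. By locus, a site of at least 100 occurred in 13 of the 41 short untreated-only loci (31.7%, 18.1 to 48.1). It occurred in 37 of the 252 longer ones (14.7%, 10.6 to 19.7), and the intervals of these shares overlapped. The median of the loci's own median scores was 23.5 (17.5 to 27.5) against 15.5 (15 to 16), without overlap. This split by span was chosen after the data were seen.

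At the other end, 5 loci had the largest spans. The widest was chr11:19826812-19881469 on the plus strand, with 17 sites over 54.7 kb and scores of 1 to 58 around a median of 14. The locus chr7:119827287-119876931 on the plus strand held only 9 sites over 49.6 kb, with a median gap of 6917 bases and a longest gap of 9995, just under the limit for joining. At chr18:77282703-77323497 on the plus strand, 17 sites over 40.8 kb scored 5 to 25, with a median of 12. The chr9:39998702 and chr8:44221730 loci complete the 5. Of these, the chr9:39998702 locus alone held a site of 100 or more.

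Scores in untreated-only loci were low, as in the whole untreated list, where the median was 17 and 57.5% of sites were under 20. The authors' score is a whole number per site that no label or header explains. Its median over the 2300 members was 16 (16 to 17, quartiles 12 and 25), and 62.3% of the members scored under 20 and 92.6% under 50. In dense loci with a treated site the median was 20 (20 to 20, quartiles 13 and 36), with 48.7% under 20. In loci with fewer than 5 untreated sites it was 15 (quartiles 11 and 24), with 66.6% under 20. The members' median thus lay between those of these sets, nearer to that of the sparse loci.

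High scores were rarer still. Of the members, 70 (3.04%, 2.38 to 3.83) scored at least 100, against 8.95% (8.40 to 9.53) in dense loci with a treated site and 6.41% (5.95 to 6.89) in loci with fewer than 5 untreated sites. The members' share was lower than in the first of these sets in each size class: 3.48% against 12.6% with 5 to 9 sites, 2.28% against 5.64% with 10 to 19, and 2.13% against 9.12% with 20 or more. At least 1 such site occurred in 50 of the 293 loci (17.1%, 12.9 to 21.9), and in 225 of the 647 others (34.8%, 31.1 to 38.6). By size class this was 15.8% (11.5 to 21.1) against 29.0% (24.1 to 34.3) with 5 to 9 sites. With 10 to 19 sites it was 20% (9.58 to 34.6) against 32.1% (25.6 to 39.2). With 20 or more it was 37.5% (8.52 to 75.5) against 52.6% (43.8 to 61.3), over 8 and 133 loci. The intervals overlapped in both larger classes. At 187 loci (63.8%) the highest score was under 50, against 256 of the 647 others (39.6%). That share was not split by size class. With 5 to 9 sites the median highest score was 34 against 46. It was 51 against 65 with 10 to 19 and 65 against 104 with 20 or more, with overlapping intervals in both.

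The lists differed most in number at low scores. Untreated sites outnumbered treated ones 8.97 to 1 at scores of 1 to 9, 5.64 to 1 at 10 to 19, 4.35 to 1 at 20 to 49, 3.02 to 1 at 50 to 99, 1.84 to 1 from 100 to under 1000 and 1.53 to 1 from 1000 up. The rule did not use scores. This relation across the lists was known beforehand, however, so the members' lower scores are no separate evidence about their loci. Between conditions, fewer contacts, less of the transcript and a shallower treated library cannot be told apart from these lists.

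**Figure D4:**
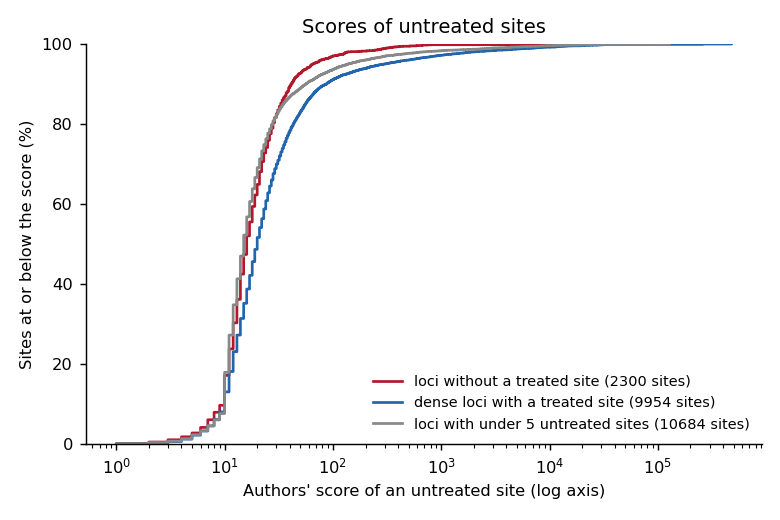
Cumulative percentage of untreated sites (vertical axis) at or below each score (horizontal, log axis) for the 2300 members, the 9954 sites of dense loci with a treated site and the 10684 sites of loci with fewer than 5 untreated sites. The curve of the members lies near that of the sparse loci at low scores and reaches 92.6% at scores under 50.

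A single locus stood far outside this range. At chr16:17222305-17222608 on the plus strand, 5 sites lay in 304 bases, with scores of 667, 7660, 260828, 8624 and 600 in order of position. The central site, chr16:17222448-17222486, is 39 bases long, and its score was the second highest of all 23380 untreated sites. It was matched or passed by 1 of the 5348 treated sites. Whether reads of this locus also map elsewhere in the genome was not tested. With sites up to 50 bases apart joined, it held 3 sites and missed the minimum of 5. All 5 sites scored at least 600, and their sum, 278379, was 76.4% of the summed score of all members. The nearest treated site on the strand lay 177.8 kb away, and the locus had no site of either list on the other strand. With 5 sites it would hold 1.14 treated sites at the ratio of the lists, or 3.06 with the ratio taken within bins of score, since untreated sites of such scores outnumbered treated ones only 1.53 to 1.

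The only other locus of the 293 with a site of 1000 or more was chr6:128788486-128793389 on the plus strand. Its 5 sites scored 753, 86, 24416, 411 and 83 in order of position. They lay in 3 groups along 4.90 kb, with a longest gap of 4220 bases, and became 3 sites when those up to 50 bases apart were joined, and likewise 3 at gaps of up to 1 kb, both under the minimum of 5. The site of 24416, chr6:128789129-128789148, ranked 54 in the untreated list, and the nearest treated site on the strand lay 1383 kb away. Elsewhere, dense loci with such scores nearly always had treated sites. Of 56 dense loci with an untreated site of at least 1000, 54 held one, and these 2 did not.

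Without these 2 loci, the members' highest score was 821, and 62 of 2290 sites scored at least 100, in 48 loci. Of those loci 36 held 1 such site and 12 held 2 or more. Among the latter, chr10:23504383-23506586 on the minus strand had 8 sites in 2.20 kb with 508, 263 and 125 at the top and a median of 29.5. At chr1:9932394-9933927 on the minus strand, 8 sites in 1.53 kb were led by 521 and 313, which lay close together at chr1:9932576-9932583 and chr1:9932558-9932565. A lone high site was the other form: at chr10:90579659-90585745 on the minus strand, 1 site of 668 held 81.7% of the score of 6 sites, and the next had 62.

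**Figure D5:**
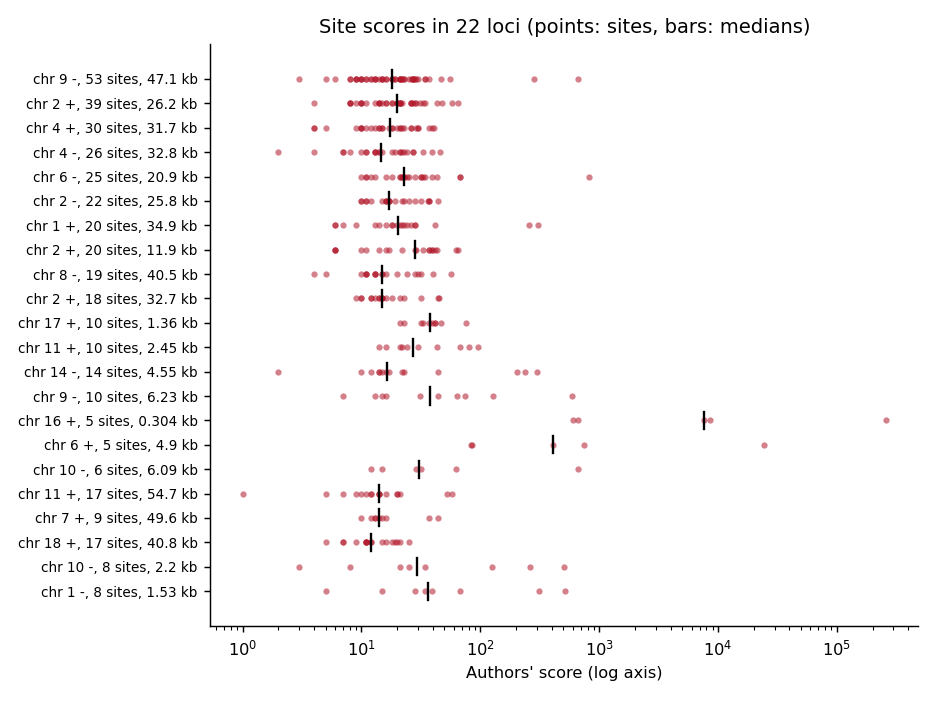
Scores of every untreated site (points, horizontal log axis) in 22 untreated-only loci, with the median of each as a bar; rows give chromosome, strand, number of sites and span. Medians lie between 12 and 38 in 20 of the loci, and at 411 and 7660 in the loci on chromosome 6, plus strand, and chromosome 16.

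The loci were spread over the genome, with 1 exception. They occurred on all 19 numbered chromosomes and on X and Y, 153 on the plus and 140 on the minus strand, and 219 of the 250 windows of 1 Mb that held any held 1. The share of dense loci that were untreated-only ran from 16% (4 of 25) on chromosome 19 to 45.7% (16 of 35) on chromosome 14, leaving out chromosome Y with a single dense locus, and the intervals of those 2 shares overlapped. Chromosome 4 held the most, 31 of 80 dense loci (38.8%, 28.1 to 50.3).

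Of those 31, 15 lay between 145 and 148 Mb, 11 on the plus and 4 on the minus strand. The 2 windows of 1 Mb with the most members anywhere were here, with 8 and 5, while no other window held more than 3. In all, 27 dense loci lay between these positions, of which 55.6% (35.3 to 74.5) were untreated-only, against 30.2% of the 53 elsewhere on chromosome 4. The 15 loci spanned 1.2 to 36.2 kb and held 5 to 30 sites, 168 in all, or 7.30% of the members. Their scores ran from 1 to 66 with a median of 15. The stretch as a whole held 340 untreated and 26 treated sites, a ratio of 13.1, where the lists have 4.37 overall and 5.95 among sites scored under 20. Of the 340, 168 were members, which lack treated sites by rule, and the stretch was picked for its many members. The ratio and the share of 55.6% thus partly restate that choice and are no separate evidence. The 26 treated sites had a median score of 14 and a highest of 57. These limits were drawn after the data were seen, and whether reads from this stretch map to more than 1 place was not tested.

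Treated sites lay at widely differing distances from these loci. The nearest treated site on the same strand lay a median of 201.5 kb away (130.2 to 288.4, quartiles 38.4 and 763.2) over the 292 loci that had one on their strand. It lay within 20 kb of 35 loci (11.9%), within 50 kb of 87 (29.7%), within 100 kb of 111 (37.9%) and over 1 Mb from 59 (20.1%). The rule itself sets the lower end, at 10 kb. For the loci with a treated site nearby, the treated list may hold sites of the same transcript, which cannot be told without an annotation.

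On the other strand, which the rule did not use, sites of either list were rare. An untreated site lay within the span on the other strand at 5 of 293 loci (1.71%, 0.556 to 3.94), against 18 of 647 dense loci with a treated site (2.78%, 1.66 to 4.36). A treated site did so at 3 (1.02%, 0.212 to 2.96) and 8 (1.24%, 0.535 to 2.42). The intervals overlapped for both. The 7 untreated sites on the other strand scored 11 to 461 and the 4 treated ones 10 to 168.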

How the data were processed

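JARID2 PAR-CLIP was done on 3 libraries of untreated and 3 of retinoic acid-treated E14 cells. The deposited files are 1 list of sites per condition, with a whole-number score per site whose unit the authors' labels do not explain. Bowtie and mm9 are named per the submitters' processing notes, with no role or version, while for the site caller and its filters no source used here gives a name. Lists were made over pooled libraries, so their length (23380 and 5348 sites) is the only depth known.

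All sites were kept. Sites of both lists were joined on 1 strand across gaps of up to 10 kb, giving 9482 loci. Span and gaps were taken over untreated sites, with overlapping neighbours at a gap of 0. Medians have 95% binomial order-statistic intervals and shares have exact (Clopper-Pearson) intervals. No test was made, because each condition has 1 list and sites or loci are not replicates. Loci set beside the members were dense loci with a treated site, taken by number of untreated sites. The members, lists and alternatives were chosen with earlier results of these data known.

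Loci named were the 10 with the most sites, and 5 each by density (at least 10 sites), highest-scored site, span and number of sites scored at least 100, with ties taken by chromosome and start, which gave 22. The last place by sites was tied among 3 loci, and the last by sites scored at least 100 among 10. The reference at hand was of another build (GRCm38), so no gene or sequence is given. The joining step was tested on simulated sites. Alternatives were other gaps, score minimums and site minimums, either strand, joining sites up to 50 bases apart, and leaving out loci. The software was pandas 2.3.3, numpy 2.4.6 and scipy 1.17.1 under Python 3.11.15, and matplotlib 3.10.9 for plots.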

Additional observations from a re-analysis of the deposited data

How the results depend on the processing

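Site lists give no read depth and 1 list per condition, so nothing here measures variation between cultures. No paired analysis was possible because the replicates of each condition were pooled into 1 list before deposit. With a minimum of 3 untreated sites there were 841 loci with 4120 sites, 46.3% of loci so dense, a median span of 8.22 kb and a median gap of 1453 bases. With a minimum of 10 there were 53 loci with 804 sites, 14%, 24.9 kb and 776 bases, and 2.24% of sites scored at least 100. With scores of at least 20 in both lists, chosen after the data were seen, there were 104 loci with 777 sites, 27.7% of dense loci, a span of 11.2 kb, a gap of 936 bases, a median score of 30 and 8.37% scored at least 100. With untreated scores of at least 20 against treated scores of at least 10, also chosen afterwards, the values were 56 loci, 413 sites, 14.8%, 7.77 kb, 755 bases, a score of 33 and 10.7%.

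A joining gap of 1 kb gave 172 loci with 1149 sites, 37.1% of dense loci, a span of 1.87 kb, a gap of 245 bases and a median score of 20. Gaps of 5 and 20 kb moved only the span, to 7.09 and 22.7 kb, and the gap, to 765.5 and 1651 bases. At 100 kb the share was 26.3%, the span 64.9 kb, the gap 3117 bases and the score 15. Span and gap follow the joining distance by construction. At 100 kb, 11 of the 22 named loci were joined to a treated site. With a gap of 1 kb, scores of at least 10 or 20, or close sites joined, none could be. Those settings only split loci, drop sites or join sites of 1 list. What could change was the number of untreated sites. Of the 22, 5 fell under 5 with a gap of 1 kb, 5 with scores of at least 20 and 2 with close sites joined. The loci that fell under 5 were no longer members. Scores of at least 10 in both lists raised the median score to 18, and joining sites up to 50 bases apart raised the gap to 1305.5 bases. Asking for no treated site on either strand, or leaving out the locus with the most sites, the chromosome 16 locus or the chromosome 4 stretch (the last 2 chosen after the data were seen), left the number of loci and of sites within 1.5 times and each share and median within its interval.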
